A study of Mus musculus with 12 samples.

Results

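Chemokines are small secreted proteins that steer the movement of leukocytes along concentration gradients, and their receptors are G protein-coupled receptors carried mostly by leukocytes. The family examined here was taken from the gene symbols of the count table alone, as CC ligands (Ccl), CXC ligands (Cxcl), fractalkine and its receptor (Cx3c), CC receptors (Ccr), CXC receptors (Cxcr) and atypical receptors (Ackr). It held 60 of the 29564 genes in the table. There were 25 CC ligands, 13 CXC ligands, 2 CX3C genes, 10 CC receptors, 6 CXC receptors and 4 atypical receptors. The symbol rule itself uses no measured value.

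Left ventricles of 12 wild-type C57BL6 mice were sequenced as poly(A) RNA, with 1 library per mouse. Control-Veh mice (libraries C1 to C4) were healthy and received vehicle. HFpEF-Veh mice (V1 to V4) were made a model of heart failure in which ejection fraction is preserved (HFpEF), by feeding a high-fat diet and blocking nitric oxide synthesis with L-NAME, and they received vehicle. HFpEF-TYA-018 mice (T1 to T4) went through the same diet and L-NAME and then had 15 mg/kg of the HDAC6 inhibitor TYA-018 by mouth. The series title speaks of a single dose, while the label protocol speaks of daily dosing over weeks, and the title was followed. Besides long-term dosing, the paper describes a separate RNA-Seq experiment with 1 dose. Its hearts were taken within hours, before any improvement in structure or function. Nothing in the labels gives sex, age or a sequencing batch, and the animal numbers of each group run together, so that cage, date or order of handling cannot be told apart from the group. Total estimated counts ranged from 61.2 to 83.9 M per library.

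In the heart, chemokines are best known for bringing in monocytes after injury. CCL2 and its receptor CCR2 draw blood monocytes out of the marrow and into tissue, CX3CR1 marks patrolling monocytes and many resident macrophages, and CXCL12 from stromal and endothelial cells acts on CXCR4. CCL19 and CCL21 guide cells carrying CCR7 into lymphatic vessels. Atypical receptors bind chemokines without the usual G protein signal and mostly clear them: ACKR3 takes up CXCL12, and ACKR4 takes up CCL19, CCL21 and CCL25.

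The macrophage ligands Ccl6 and Ccl9 and the stromal ligand Cxcl12 were 1.83, 2.37 and 1.59-fold higher in HFpEF-Veh hearts than in those of Control-Veh mice. In HFpEF-TYA-018 hearts the same ligands were at 0.414, 0.406 and 0.692 times their HFpEF-Veh level. The scavenging receptor Ackr4 was also called in both comparisons, in 8 and 3 of 8 fits that left out a library. Monocyte and macrophage receptors Ccr2 and Cx3cr1 were called higher in HFpEF-Veh than in healthy hearts, in 4 and 1 of 8 such fits. Cx3cr1 was just inside the threshold (adjusted p = 0.0495, edgeR). Ccl21a, the lymphatic ligand, was called lower in untreated model hearts than in Control-Veh, in 4 of 8 fits that left out a library. The most abundant receptor transcripts, Ackr3 and Cxcr4, gave no call in any comparison.

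Ccl6 and Ccl9 are neighbouring genes, and the start regions of both are printed here with that of Cxcl12, because these were the ligands called in both comparisons that involve HFpEF-Veh in every fit that left out a library. Ccl6 (ENSMUSG00000018927.3) lies on chromosome 11 at 83587882 to 83593087, and Ccl9 (ENSMUSG00000019122.8) at 83572919 to 83578636, both on the minus strand, 9.245 kb apart. Cxcl12 (ENSMUSG00000061353.11) lies on chromosome 6 at 117168535 to 117181367 on the plus strand. Gene coordinates are GENCODE M21 on GRCm38, and each sequence runs from 250 bases before to 50 bases after the RefSeq start (GRCm38.p6), read 5′ to 3′ along the gene: chr11:83593038-83593337 for Ccl6, chr11:83578587-83578886 for Ccl9 and chr6:117168285-117168584 for Cxcl12. Capitals in the Ccl6 and Ccl9 sequences mark runs of 10 or more letters that both contain, and capitals in the Cxcl12 sequence mark GC boxes (GGGCGG on either strand).
Ccl6: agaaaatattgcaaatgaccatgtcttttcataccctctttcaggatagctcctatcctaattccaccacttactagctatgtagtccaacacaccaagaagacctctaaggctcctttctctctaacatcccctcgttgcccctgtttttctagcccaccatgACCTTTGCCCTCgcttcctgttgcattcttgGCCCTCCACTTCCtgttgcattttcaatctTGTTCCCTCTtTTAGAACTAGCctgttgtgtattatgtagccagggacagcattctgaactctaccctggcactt
Ccl9: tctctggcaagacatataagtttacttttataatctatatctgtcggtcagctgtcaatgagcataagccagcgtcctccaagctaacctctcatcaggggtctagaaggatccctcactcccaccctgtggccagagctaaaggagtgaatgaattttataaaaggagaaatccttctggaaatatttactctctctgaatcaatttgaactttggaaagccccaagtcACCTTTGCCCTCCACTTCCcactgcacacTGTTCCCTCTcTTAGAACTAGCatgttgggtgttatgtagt
Cxcl12: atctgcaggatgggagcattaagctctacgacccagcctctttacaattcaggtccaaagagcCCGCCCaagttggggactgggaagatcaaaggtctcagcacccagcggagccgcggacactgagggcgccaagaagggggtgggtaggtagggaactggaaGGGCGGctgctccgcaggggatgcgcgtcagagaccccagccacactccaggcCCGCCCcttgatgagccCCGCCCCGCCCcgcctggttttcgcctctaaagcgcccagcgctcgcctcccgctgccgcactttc
The longest run common to the Ccl6 and Ccl9 windows was 13 letters. Among the 861 pairs of the 42 member genes with such a window, 8 pairs had a run at least that long, and the median was 8 letters. GC content was 45.3% for Ccl6, 43.7% for Ccl9 and 64.7% for Cxcl12, beside a median of 52.7% over 32851 windows.

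Letter patterns were searched on both strands of these windows. The NF-kB pattern was found once in the Ccl9 window, at 35 bases before the start (position -35), where 1.63% of all windows hold it and 6 of the 46 windows of the family do. The AP-1 pattern TGANTCA stood at position -53 of Ccl9 and in 7.81% of all windows. The PU.1 pattern AGGAAGT, named for a factor of macrophages, stood at position -48 of Ccl6 and in 9.35% of all windows. The TATA pattern TATAAA occurred 3 times in the Ccl9 window and in 13.6% of all windows. GC boxes occurred 5 times in the Cxcl12 window, including a pair that overlaps, and at least once in 35.7% of all windows. STAT (TTCNNNGAA, 8.30% of all windows) and C/EBP (TTGCNNAA, 10.8%) patterns were also searched, and 3 and 5 of the 46 family windows held them. These matches describe letters only.

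Of the 60 members, 36 had enough counts to be tested (edgeR's filterByExpr), and 16 of them had a mean of at least 1 CPM (the count divided by the TMM-scaled library total in units of 1e6) over the 12 libraries and are called well measured. The other 20 tested members were low. The well measured members were 6 CC ligands, 5 CXC ligands, Cx3cl1, Ccr2, Cxcr4, Ackr3 and Ackr4. A count of 3, taken as the floor, corresponds to between 0.0319 and 0.0521 CPM on this scale. The floor covers counting error only, whereas the 95% intervals of fold changes come from the edgeR fit and include the spread between mice.

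There were 24 members without a test. Of these, 8 had no count in any library: Ccl1, Ccl26, Ccl21b, Ccl21c, Ccl19-ps1, Ccl19-ps3, Cxcl15 and Cxcl17. The other 16 had a few counts, among them the CCR4 ligand Ccl17 with at most 10 counts, the macrophage inflammatory ligand Ccl4 with at most 8, the neutrophil attractants Cxcl5 and Cxcl2 with at most 20 and 15, and the receptors Ccr3, Ccr4, Ccr6, Ccr8, Ccr9, Ccr10 and Cxcr1 with at most 4 each. Ackr2, a scavenger of inflammatory CC ligands, had 75 counts in C3 and 0 in each of the 11 other libraries. Ccl20, Ccl28, Cxcl3 and Cxcl11 had at most 2 counts.

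TPM values, which scale transcripts to length and library, allow levels to be ranked between genes. Ccl21a led with a mean of 23.9 TPM over the 12 libraries, followed by Cxcl12 with 13.9 TPM. Ackr3 (4.33), Ccl6 (4.28) and Ccl27a (4.26) lay close together in TPM. Cxcl14 had 3.23, Ccl11 2.06, Cxcl16 1.78, Ccl19 1.38 and Ccl2 1.27 TPM. All other tested members had a mean under 1 TPM. Cxcl12 alone made up between 15.6% and 28.5% of the summed TPM of the family.

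**Figure D1:**
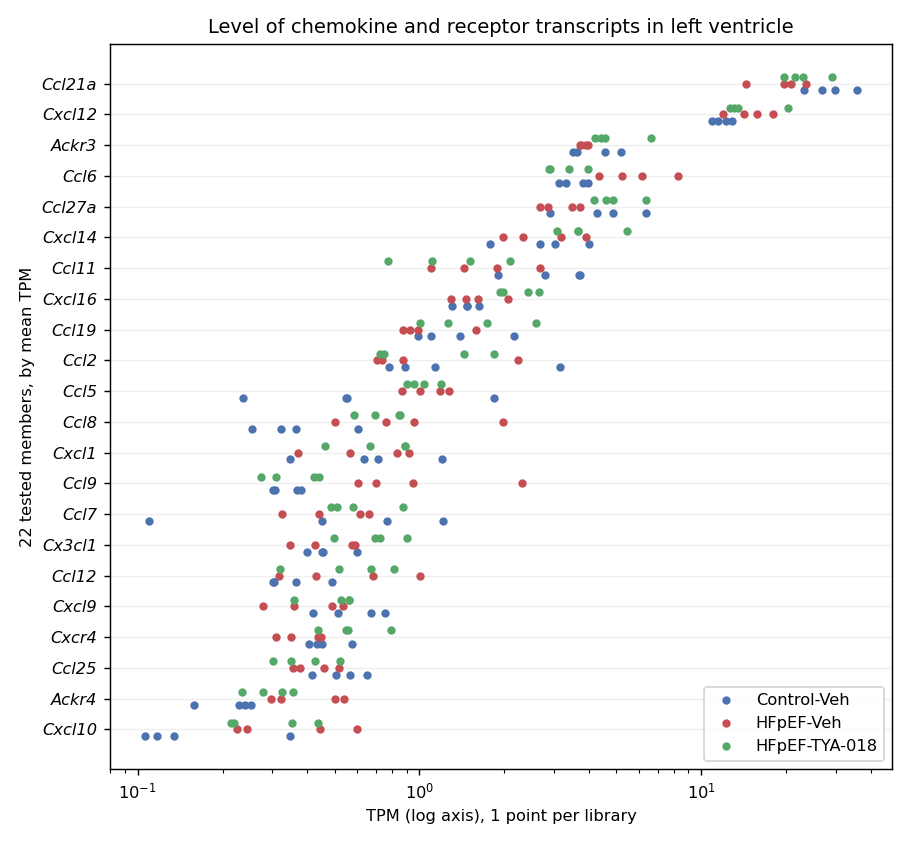
TPM (log axis) of 22 tested members of high mean level, 1 point per library, coloured by group. Ccl21a and Cxcl12 stand apart at means of 23.9 and 13.9 TPM, and below Ccl2 the means are under 1 TPM.

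These lengths limit the ranking. The effective length that the authors' program assigned to a gene exceeded the longest annotated transcript for 11 of the 36 tested members. For Ccl9 it ranged between libraries from 1356 bases in V4 to 5546 bases in T4. It was 251 bases in every library for Ccl8. Ranked instead by CPM per kilobase of the longest transcript, Ccl21a (34.3) and Cxcl12 (32.5) stayed at ranks 1 and 2, and Ccl9 took rank 10 with 2.32. Comparisons between groups below therefore rest on CPM.

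Sequence shared with other genes is a second limit. Of the 31-base words in Ccl21a transcripts, 80.6% also occur in 4 other genes, Ccl21b among them, and the corresponding shares were 57.0% for Ccl27a and 58.8% for Ccl19. Levels of these ligands are uncertain, since reads could be split among copies. Shares on the opposite strand were 8.11% for Ackr4, with Acad11 among the partners, and 18.5% for Cxcl16, with Zmynd15. The libraries were made with a stranded kit, but whether the counting used strand is not given in the sources used here. Without it such reads cannot be told apart.

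The first comparison asked which members differ between the disease model and healthy hearts. Of the 36 tested members, 8 were called in HFpEF-Veh against Control-Veh at an adjusted p under 0.05 (edgeR's quasi-likelihood test, Benjamini-Hochberg over 14333 genes), 7 higher and 1 lower. Among all tested genes 21.2% were called, against 22.2% of the members, so that the family was called about as often as genes in general. Higher calls were 19.4% of the members and 10.9% of all genes, and lower calls 2.78% and 10.3%. The median log2 fold change was 0.24 over the members and -0.01 over all genes, while on the log2(TPM + 1) scale 18 of 36 members were positive and 25 lay above the median of all genes, which was -0.07 (limma). The libraries of the groups did not overlap for 7 members, all higher in HFpEF-Veh, which is 19.4% of the members beside 12% of all genes. In either direction it was 23.5% of all genes.

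The second comparison asked which members differ after TYA-018. It gave 5 calls among the 36 members in HFpEF-TYA-018 against HFpEF-Veh, all of them lower, which is 13.9% of the members beside 19.3% of all genes. Lower calls alone made up 10.4% of all genes. No member was called higher by edgeR or by DESeq2, while edgeR called 8.93% of all genes higher. At an unadjusted p under 0.05 no member was higher either (0 by edgeR, 0 by DESeq2). The median log2 fold change was -0.35 over the members and 0.002 over all genes, and 30 of 36 members had a negative value. On the log2(TPM + 1) scale, where the median of all genes was 0.17, 20 of 36 members were negative and 28 lay below that median. On that scale 4 members were higher at an unadjusted p under 0.05 (limma). No count over all genes was made at the unadjusted threshold, so these 0 and 4 have no background share. The groups did not overlap for 7 members, 6 lower (16.7% of the members, beside 13.1% of all genes) and 1 higher (2.78%, beside 12%). In either direction it was 25.1% of all genes.

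The third comparison set treated model hearts against healthy hearts. Only Ccl11 was called by edgeR, 1 of 36 members or 2.78%, beside 5.86% of all genes (3.12% higher and 2.74% lower). DESeq2 called 2 members, Ccl11 and Ccl21a, beside 1514 of all genes. The groups did not overlap for 3 members, Ccl11, Ccl21a and Ccl25, all lower, against 14.8% of all genes (7.76% higher and 7.05% lower). The median log2 fold change was -0.13 over the members and -0.02 over all genes. The comparisons share libraries (HFpEF-Veh in the first and the second, HFpEF-TYA-018 in the second and the third, Control-Veh in the first and the third), so their values are given side by side and are not independent of each other.

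**Figure D2:**
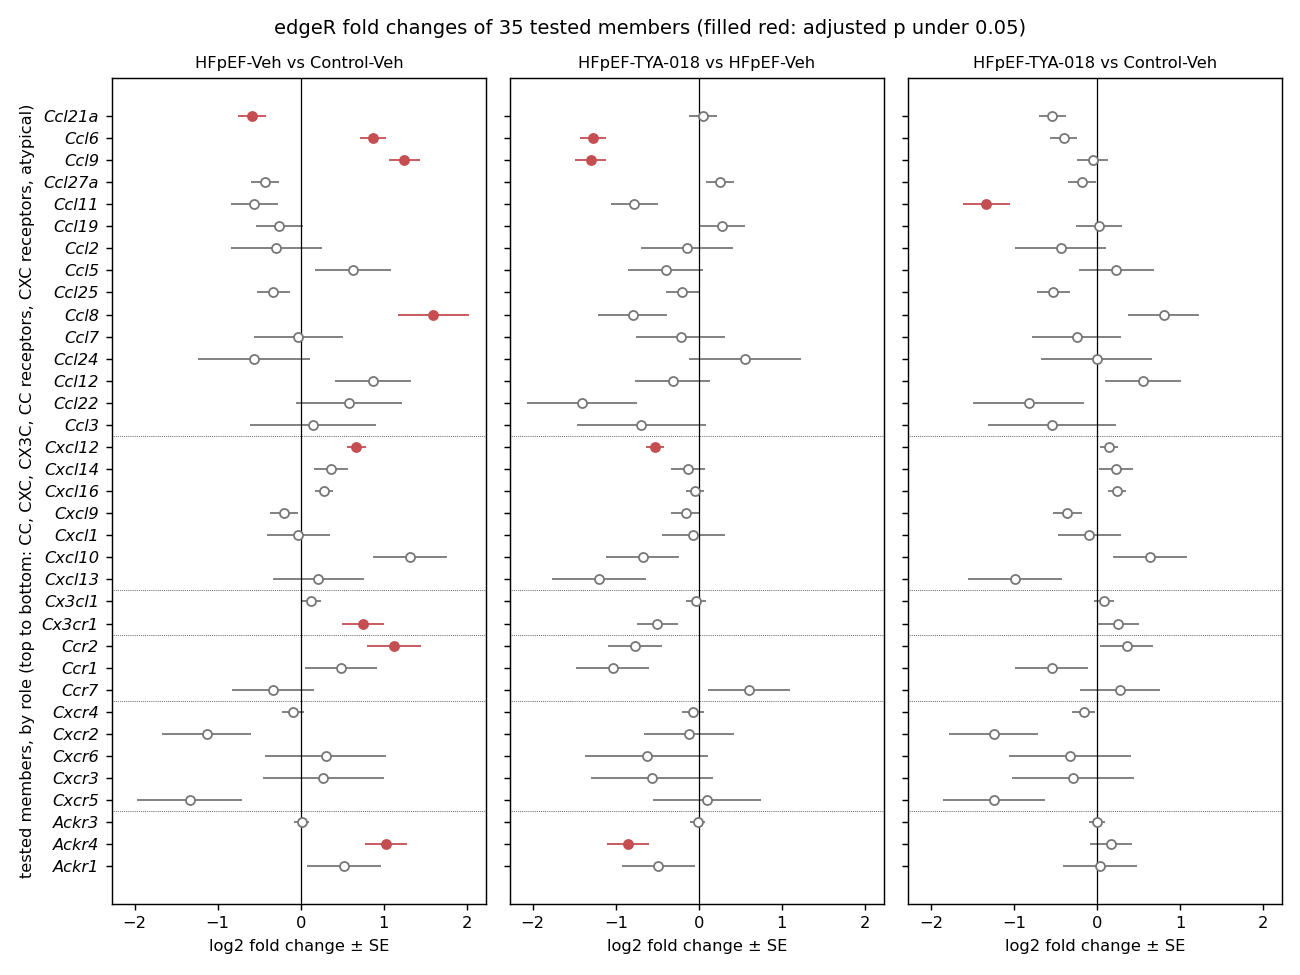
Log2 fold change ± SE of 35 of the 36 tested members in the 3 comparisons, ordered by role and then by level, with filled red points for an adjusted p under 0.05 (edgeR). There are 8 filled points in the first panel, 4 in the second, all left of 0, and 1 in the third.

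Ccl6 encodes a ligand made in quantity by mouse macrophages. Its CPM was 7.42, 6.64, 5.88 and 7.36 in C1 to C4, 9.01, 14.3, 14.8 and 11.8 in V1 to V4, and 4.45, 4.47, 5.74 and 6.00 in T1 to T4. Every HFpEF-Veh library lay above every other library. Control-Veh averaged 6.82 ± 0.721 CPM, HFpEF-Veh 12.5 ± 2.65 CPM and HFpEF-TYA-018 5.16 ± 0.822 CPM (mean ± SD, n = 4, here and throughout). The log2 fold change was 0.87 (SE 0.16, adjusted p = 0.00329) for HFpEF-Veh against Control-Veh and -1.27 (SE 0.16, adjusted p = 0.000926) for HFpEF-TYA-018 against HFpEF-Veh. It was -0.40 for HFpEF-TYA-018 against Control-Veh, which did not pass (adjusted p = 0.156), with a 95% interval from -0.75 to -0.06 before adjustment for the number of genes.

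Ccl9 encodes a related ligand of CCR1. It measured 4.86, 5.20, 4.62 and 4.64 CPM in C1 to C4. In V1 to V4 it measured 8.46, 15.8, 10.9 and 10.7 CPM, and in T1 to T4 3.81, 3.71, 5.78 and 5.31 CPM. As for Ccl6, the HFpEF-Veh libraries stood above all others, while Control-Veh and HFpEF-TYA-018 overlapped. In log2 units the fold change was 1.25 (SE 0.19, adjusted p = 0.00138) in the first comparison and -1.30 (SE 0.19, adjusted p = 0.00156) in the second. Treated and healthy hearts differed by -0.05, with a 95% interval from -0.46 to 0.36. Both ligands were called in 8 of 8 fits that left out a library, in both comparisons, with adjusted p at most 0.0130 for Ccl6 and 0.00729 for Ccl9. On the log2(TPM + 1) scale the first comparison did not pass for either (adjusted p = 0.0905 for Ccl6 and 0.103 for Ccl9, limma), while the second did (0.0289 and 0.0443). With effective lengths as an offset Ccl9 moved to 2.01 in the first comparison and -2.14 in the second (adjusted p = 0.0126 and 0.0121, edgeR).

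Cxcl12 was the member with the highest counts. It measured 147, 146, 169 and 132 CPM in C1 to C4, 284, 224, 235 and 204 CPM in V1 to V4, and 163, 143, 165 and 183 CPM in T1 to T4. Again each HFpEF-Veh library was above every other. In log2 units the fold change was 0.67 (SE 0.11, adjusted p = 0.00200) against Control-Veh, and -0.53 (SE 0.11, adjusted p = 0.00745) from HFpEF-Veh to HFpEF-TYA-018. The difference between HFpEF-TYA-018 and Control-Veh was 0.14 with a 95% interval from -0.10 to 0.38. Cxcl12 was called in 8 of 8 fits without a library in both comparisons.

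The scale mattered for Cxcl12 too. Its effective length was between 4862 and 5245 bases in HFpEF-Veh, between 3772 and 4799 in Control-Veh and between 4069 and 4704 in HFpEF-TYA-018. With these lengths as an offset the log2 fold changes were 0.54 and -0.47 (adjusted p = 0.0121 and 0.0244, edgeR). On the log2(TPM + 1) scale the second comparison gave -0.02, where the median of all genes was 0.17, and neither comparison passed for Cxcl12 (limma).

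**Figure D3:**
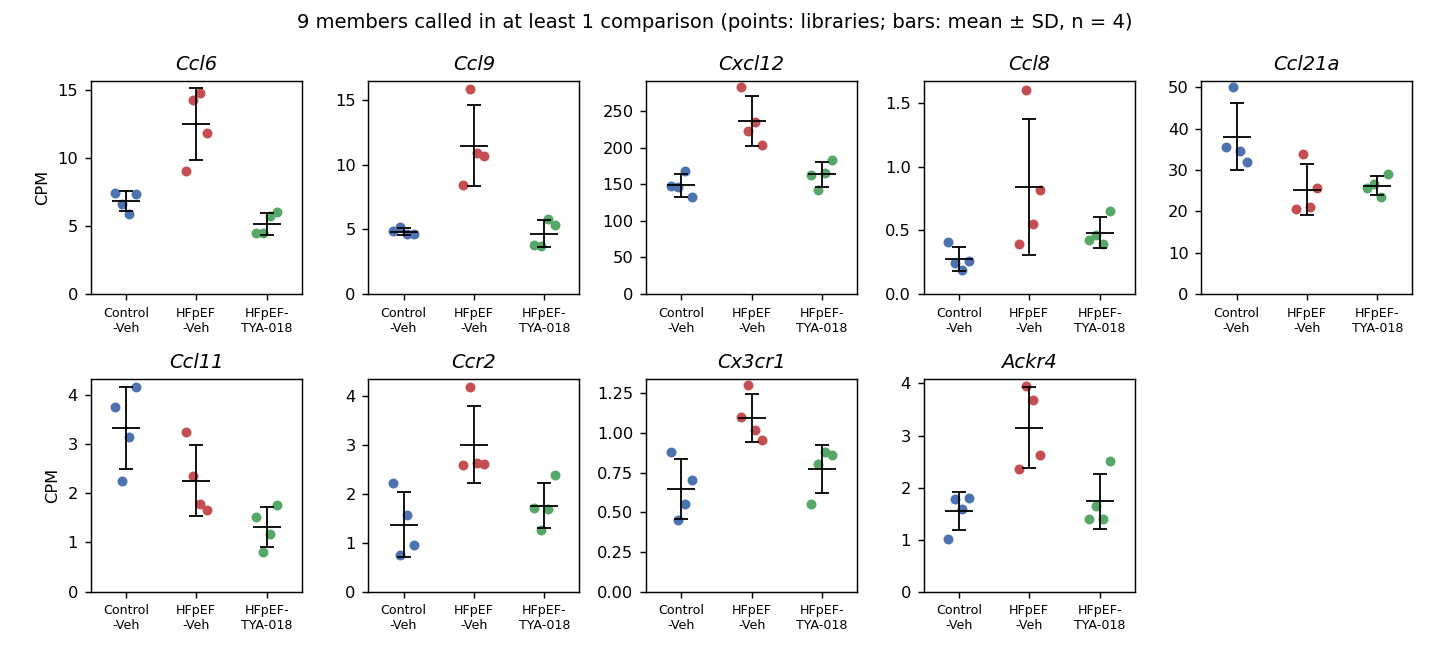
CPM of 9 of the 10 members called in at least 1 comparison, with 1 point per library and bars for mean ± SD (n = 4 per group), each panel on its own axis from 0. For Ccl6, Ccl9 and Cxcl12 the 4 HFpEF-Veh libraries sit above the 8 others, and Ccl11 is highest in Control-Veh.

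Ccl8, a monocyte attractant, was low, with 12 to 95 counts per library. It measured 0.407, 0.242, 0.189 and 0.263 CPM in C1 to C4, 0.395, 1.60, 0.547 and 0.816 CPM in V1 to V4, and 0.425, 0.462, 0.389 and 0.655 CPM in T1 to T4. V2 was the highest library by far, and V1 lay inside the Control-Veh range. Its log2 fold change in HFpEF-Veh was 1.60 (SE 0.43, adjusted p = 0.0212), a call that was lost without any of C2, C3, C4 or V2 (adjusted p up to 0.0657). In the second comparison it was -0.80 with an adjusted p of 0.204.

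Ccl21a, the CCR7 ligand of lymphatic endothelium, measured 35.5, 50.0, 34.5 and 32.0 CPM in C1 to C4. It measured 20.6, 33.8, 21.1 and 25.6 CPM in V1 to V4 and 25.7, 26.6, 23.5 and 28.9 CPM in T1 to T4. V2 lay within the Control-Veh range, and the treated libraries lay within the HFpEF-Veh range. Its log2 fold change in HFpEF-Veh was -0.59 (SE 0.17, adjusted p = 0.0268), lost without C2, V1, V3 or V4 (adjusted p up to 0.0785). It was -0.54 (adjusted p = 0.0799) for HFpEF-TYA-018 against Control-Veh, where the groups did not overlap. With effective lengths as an offset the first difference was -0.34 (adjusted p = 0.224, edgeR).

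Ccl11, or eotaxin, draws eosinophils through CCR3. It measured 3.74, 2.25, 3.14 and 4.16 CPM in C1 to C4, 3.25, 2.34, 1.78 and 1.67 CPM in V1 to V4, and 1.52, 0.816, 1.17 and 1.76 CPM in T1 to T4. The lowest Control-Veh library was above the highest HFpEF-TYA-018 library, with HFpEF-Veh between and overlapping both. The call was in the third comparison, at -1.33 (SE 0.28, adjusted p = 0.0210), and was lost without C4, T2 or T3 (adjusted p up to 0.0644). The log2 fold changes of -0.56 and -0.78 in the first and second comparisons had adjusted p of 0.174 and 0.0730.

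The other tested CC ligands gave no call in the fit of all 12 libraries. Ccl27a, a CCR10 ligand best known from skin, measured 2.97, 5.57, 4.78 and 5.57 CPM in C1 to C4, 3.80, 3.34, 3.33 and 3.56 CPM in V1 to V4, and 4.49, 4.19, 4.15 and 3.83 CPM in T1 to T4. Each HFpEF-TYA-018 library exceeded each HFpEF-Veh library, at a log2 fold change of 0.25 that did not pass (adjusted p = 0.327). Without C1 its difference between HFpEF-Veh and Control-Veh reached an adjusted p of 0.00220, against 0.0876 with all libraries.

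Ccl19, the other CCR7 ligand, measured 0.977, 1.63, 0.836 and 0.788 CPM in C1 to C4, 0.739, 0.809, 1.14 and 0.851 CPM in V1 to V4, and 1.31, 1.20, 0.707 and 1.09 CPM in T1 to T4, with all groups overlapping. Ccl2, the main CCR2 ligand, measured 0.543, 0.937, 2.35 and 0.671 CPM in C1 to C4, 1.79, 0.708, 0.532 and 0.642 CPM in V1 to V4, and 0.382, 0.539, 1.27 and 1.13 CPM in T1 to T4. C3 and V1 stood above the rest of their groups. Ccl2 had a log2 fold change of -0.29 in HFpEF-Veh with a 95% interval from -1.49 to 0.90.

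Among the low CC ligands, Ccl5 averaged 0.554 ± 0.466 CPM (Control-Veh), 0.862 ± 0.192 (HFpEF-Veh) and 0.655 ± 0.0502 after TYA-018. Without C1, which had 1.23 CPM of Ccl5 beside 0.178 to 0.410 in the other Control-Veh libraries, its first comparison reached an adjusted p of 0.0105, against 0.344 with all libraries. Ccl12 averaged 0.265 ± 0.0720, 0.485 ± 0.244 and 0.391 ± 0.177 CPM in the 3 groups in that order. Ccl25, an ACKR4 and CCR9 ligand, averaged 0.772 ± 0.0647, 0.615 ± 0.0742 and 0.535 ± 0.0531 CPM. For Ccl25 every treated library was below every Control-Veh library, at -0.53 (adjusted p = 0.144). Ccl7, Ccl24, Ccl3 and Ccl22 averaged at most 0.516 CPM in any group, and their log2 fold changes lay between -1.40 and 0.58, none of them called.

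Apart from Cxcl12, no CXC ligand was called by edgeR in any comparison. At an unadjusted p under 0.05 the 7 tested CXC ligands gave 3, 1 and 1 in the 3 comparisons (edgeR). Cxcl12 itself is in the first and second of these counts. The share of all genes at that threshold was not counted. DESeq2 called Cxcl10 in the first comparison. Cxcl14 measured 19.8, 14.3, 16.9 and 9.95 CPM in C1 to C4, 20.4, 25.4, 15.5 and 17.4 CPM in V1 to V4, and 17.9, 14.3, 17.7 and 21.7 CPM in T1 to T4. Those ranges overlapped throughout. Cxcl16, a membrane-bound ligand of CXCR6, measured 8.63, 8.27, 7.90 and 7.24 CPM in C1 to C4, 9.63, 10.7, 9.98 and 8.68 CPM in V1 to V4, and 8.12, 8.36, 10.7 and 10.7 CPM in T1 to T4. Each HFpEF-Veh library was above each Control-Veh library for Cxcl16, yet the log2 fold change of 0.28 did not pass (adjusted p = 0.0807).

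Cxcl9 and Cxcl10 are ligands of CXCR3 that interferon gamma induces. Cxcl9 averaged 4.98 ± 1.05 CPM (Control-Veh), 4.34 ± 0.658 (HFpEF-Veh) and 3.89 ± 0.626 after TYA-018. Cxcl10 was far lower, at 0.207 ± 0.125, 0.520 ± 0.243 and 0.325 ± 0.0731 CPM. Its log2 fold change of 1.32 in HFpEF-Veh missed the threshold (adjusted p = 0.0550) and passed with DESeq2 (0.0321). Leaving out C1, the highest Control-Veh library, gave an adjusted p of 0.0104. The neutrophil attractant Cxcl1 averaged between 1.04 and 1.11 CPM in the 3 groups. The B cell attractant Cxcl13 averaged 0.301 ± 0.136, 0.349 ± 0.0861 and 0.153 ± 0.127 CPM, without a call.

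Fractalkine and its receptor were unlike each other in the first comparison, although the difference between them was not tested. The ligand Cx3cl1, a membrane-bound chemokine of endothelium, averaged 8.52 ± 0.707, 9.29 ± 1.48 and 9.05 ± 1.15 CPM, and its log2 fold change of 0.12 had a 95% interval from -0.14 to 0.39. The receptor Cx3cr1 measured 0.882, 0.452, 0.552 and 0.701 CPM in C1 to C4, 1.10, 1.30, 1.02 and 0.955 CPM in V1 to V4, and 0.552, 0.801, 0.880 and 0.863 CPM in T1 to T4. All HFpEF-Veh libraries lay above all others. For Cx3cr1 the log2 fold change was 0.75 (SE 0.25, adjusted p = 0.0495), just inside the threshold. That call held in 1 of 8 fits that left out a library, the one without C1 (adjusted p up to 0.128 in the others). It was also lost with no filter on low counts (0.0849), with only these 2 groups in the fit (0.0725), with effective lengths as an offset (0.0867) and on the TPM scales. The second comparison gave -0.50 and did not pass (adjusted p = 0.181).

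The receptor of CCL2, Ccr2, is the defining receptor of recruited monocytes. It measured 2.22, 0.743, 1.58 and 0.949 CPM in C1 to C4, 2.60, 4.18, 2.63 and 2.60 CPM in V1 to V4, and 1.71, 1.26, 1.69 and 2.38 CPM in T1 to T4. No HFpEF-Veh library overlapped with another group. The log2 fold change was 1.12 (SE 0.32, adjusted p = 0.0286) in the first comparison, lost without C2, C3, C4 or V2 (adjusted p up to 0.0823). It was -0.77 in the second (adjusted p = 0.114), and with only these 2 groups in the fit it passed (0.0451).

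Ccr1, the receptor of CCL9 among others, measured 0.502, 0.323, 0.221 and 0.496 CPM in C1 to C4, 0.378, 0.775, 0.790 and 0.226 CPM in V1 to V4, and 0.223, 0.323, 0.332 and 0.179 CPM in T1 to T4. Its log2 fold change of -1.04 in the second comparison did not pass (adjusted p = 0.119), and the groups overlapped. Ccr7, the receptor of CCL19 and CCL21, measured 0.366, 0.129, 0.205 and 0.161 CPM in C1 to C4, 0.120, 0.354, 0.0912 and 0.122 CPM in V1 to V4, and 0.287, 0.277, 0.303 and 0.179 CPM in T1 to T4. All of these values overlapped between groups.

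Among the CXC receptors only Cxcr4, the signalling receptor of CXCL12, was well measured. It measured 7.32, 6.32, 7.38 and 5.69 CPM in C1 to C4, 5.91, 6.03, 5.36 and 7.72 CPM in V1 to V4, and 5.07, 5.67, 6.30 and 6.85 CPM in T1 to T4. While its ligand transcript was 1.59-fold higher in HFpEF-Veh, the log2 fold change of Cxcr4 was -0.09 with a 95% interval from -0.39 to 0.20. The second comparison gave -0.07 (95% interval -0.36 to 0.23). No CXC receptor was called by edgeR or DESeq2 in any comparison, and at an unadjusted p under 0.05 edgeR gave 0, 0 and 1 of the 5. The share of all genes at an unadjusted p was not counted.

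The 4 low CXC receptors belong mainly to lymphocytes and neutrophils. Cxcr2, the neutrophil receptor, measured 0.827, 0.242, 0.378 and 0.978 CPM in C1 to C4, 0.120, 0.320, 0.319 and 0.347 CPM in V1 to V4, and 0.276, 0.123, 0.159 and 0.461 CPM in T1 to T4. Its log2 fold change of -1.13 in HFpEF-Veh did not pass (adjusted p = 0.154). Cxcr3 measured 0.271, 0.0646, 0.237 and 0.0584 CPM in C1 to C4, 0.0516, 0.421, 0.122 and 0.174 CPM in V1 to V4, and 0.149, 0.0462, 0.245 and 0.0744 CPM in T1 to T4, near the floor in several libraries.

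Cxcr6, the receptor of CXCL16, measured 0.393, 0.258, 0.237 and 0.161 CPM in C1 to C4, 0.189, 0.388, 0.167 and 0.555 CPM in V1 to V4, and 0.308, 0.277 and 0.245 CPM in T1 to T3. It had 0 counts in T4, which allows up to 0.0447 CPM. Cxcr5, a B cell receptor, measured 0.312, 0.162, 0.300 and 0.117 CPM in C1 to C4, 0.0172, 0.101, 0.0912 and 0.139 CPM in V1 to V4, and 0.106, 0.0308, 0.173 and 0.0595 CPM in T1 to T4. Its difference of -1.34 in HFpEF-Veh did not pass (adjusted p = 0.150), with 1 count in the lowest library.

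Ackr4, which clears CCL19, CCL21 and CCL25, measured 1.02, 1.78, 1.59 and 1.80 CPM in C1 to C4, 2.36, 3.94, 3.68 and 2.62 CPM in V1 to V4, and 1.39, 1.65, 1.40 and 2.52 CPM in T1 to T4. HFpEF-Veh lay above Control-Veh without overlap, and T4 lay inside the HFpEF-Veh range. The log2 fold change was 1.03 (SE 0.25, adjusted p = 0.0146) in the first comparison, called in 8 of 8 fits that left out a library. It was -0.86 (SE 0.25, adjusted p = 0.0341) in the second, lost without V2, V3, T1, T2 or T3 (adjusted p up to 0.101). The second call was also lost with no filter on low counts (0.0519), with effective lengths as an offset (0.0649) and on the log2(TPM + 1) scale (0.144, limma), where the first was lost as well (0.0951).

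Ackr3, the CXCL12 scavenger, measured 48.6, 47.8, 39.2 and 36.4 CPM in C1 to C4, 44.2, 46.7, 39.0 and 43.5 CPM in V1 to V4, and 43.9, 40.3, 42.9 and 44.6 CPM in T1 to T4. Its log2 fold changes were 0.01 (95% interval -0.19 to 0.21) and -0.01 (-0.21 to 0.19) in the first and second comparisons, among the narrowest intervals in the family. Ackr1, which binds many inflammatory chemokines on venules and red cells, measured 0.244, 0.323, 0.205 and 0.248 CPM in C1 to C4, 0.361, 0.523, 0.137 and 0.451 CPM in V1 to V4, and 0.127, 0.277, 0.245 and 0.402 CPM in T1 to T4. The groups overlapped for Ackr1, of whose 31-base words 23.0% also occur in Cadm3.

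Bulk tissue mixes cells, so fewer cells of a type and less RNA per cell cannot be told apart, and marker lists are therefore given beside the members. Of 14 macrophage markers, 13 were in the table, and all 13 had counts in every library. Their summed CPM ranged from 156 to 191 (Control-Veh), from 239 to 310 (HFpEF-Veh) and from 171 to 209 after TYA-018. In the first comparison 9 of the 13 were called higher, among them the complement genes C1qa, C1qb and C1qc and the mannose receptor Mrc1, and none lower. In the second 6 were called lower (C1qa, C1qb, C1qc, Cd163, Mertk and Mrc1). Summed in TPM, the list ranged from 47.7 to 65.2, from 63.1 to 88.8 and from 61.8 to 92.1 in the 3 groups, so that on that scale treated and untreated model hearts overlapped. The part of macrophage content in the values of Ccl6, Ccl9, Ccr2 and Cx3cr1 was not tested.

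Fibroblast markers, whose cells are a known source of CXCL12, summed to between 664 and 1103 CPM (Control-Veh), 1077 and 1543 (HFpEF-Veh) and 729 and 1086 after TYA-018. Of 8 fibroblast markers 4 were called higher in the first comparison and 5 lower in the second. Endothelial markers summed to between 1455 and 1652, between 1644 and 1983, and between 1367 and 1634 CPM, with 3 of 8 called higher and then 4 of 8 lower. Dendritic cell markers, 5 of 6 with counts in every library, averaged 17.2 ± 1.03, 22.9 ± 0.955 and 16.1 ± 2.17 CPM in sum. Monocyte markers summed to 85.5 to 124, 134 to 139 and 86.6 to 108 CPM, but the 3 called of 5 tested (Ace, Fn1 and Vcan) are also made by other cells of the heart. Summed in TPM the pattern differed. Endothelial markers averaged 635 ± 71.4, 582 ± 98.2 and 693 ± 180 TPM in the 3 groups. Fibroblast markers ranged from 135 to 218, from 167 to 227 and from 144 to 195 TPM, so that all groups overlapped. Mean TPM was 1.34, 1.44 and 1.49 for dendritic cell markers and 10.4, 13.6 and 13.2 for monocyte markers. The part of these cell types in the values of Cxcl12 and Ackr4 was not tested.

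Lymphocyte and neutrophil lists were low. T cell markers summed to between 1.87 and 5.56 CPM over all 12 libraries, with 7 of 12 above 0 in every library. None of the 8 tested was called in any comparison by edgeR or DESeq2, and at an unadjusted p under 0.05 edgeR gave 0 in each and DESeq2 1 in the first. Here too the share of all genes at an unadjusted p was not counted. B cell markers summed to 8.22 to 10.1 CPM (Control-Veh), 4.98 to 7.98 (HFpEF-Veh) and 5.75 to 7.55 after TYA-018, with Cd79a and Ighd called lower in HFpEF-Veh. Neutrophil markers summed to 4.10 to 10.8, 1.74 to 4.92 and 2.23 to 6.04 CPM, with Csf3r and S100a9 called lower in HFpEF-Veh. Neither Cxcr5 nor Cxcr2 was called in any comparison, and the part of these cells in their values was not tested.

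**Figure D4:**
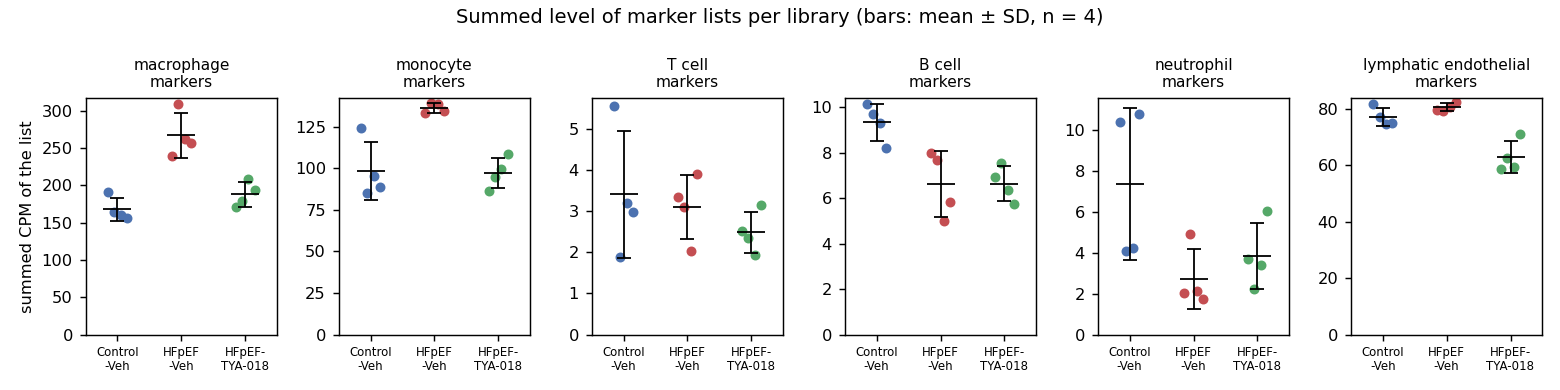
Summed CPM of 6 marker lists per library, with bars for mean ± SD (n = 4 per group), each panel on its own axis from 0. Macrophage markers lie between 239 and 310 CPM in HFpEF-Veh, above all other libraries, while T cell markers stay between 1.87 and 5.56 CPM.

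Lymphatic endothelial markers summed to 74.7 to 81.5 CPM (Control-Veh), 79.2 to 82.5 (HFpEF-Veh) and 58.6 to 71.1 after TYA-018. In TPM the same sums ranged from 4.38 to 6.13, from 3.80 to 4.71 and from 3.83 to 5.55 in these groups. Beside them, the mean CPM of Ccl21a was lower in both model groups than in Control-Veh, with an edgeR call in HFpEF-Veh only. Of the 6 lymphatic markers, Prox1 was called lower and Lyve1 higher in HFpEF-Veh, and Lyve1 and Flt4 lower and Prox1 higher after TYA-018. Red cell genes summed to between 1576 and 2334 CPM (Control-Veh), between 4837 and 14272 (HFpEF-Veh) and between 2323 and 3605 after TYA-018. Cardiomyocyte genes, all 8 above 0 in every library as the labelled tissue requires, summed to 27490 to 38574, 25485 to 27075 and 29092 to 32001 CPM. Mitochondrially encoded genes took 37.0% to 40.6% of counts (Control-Veh), 43.1% to 47.7% (HFpEF-Veh) and 35.4% to 41.2% after TYA-018. The part of these shifts in the members' values was not tested. Leaving out the mitochondrial genes gave 8, 5 and 1 called members, beside 3046, 2739 and 824 of all genes.

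Genes that act around chemokines were looked at in 6 lists holding 124 genes, 108 of them tested. The lists were chosen with earlier results of these data known, so their shares of calls are a description and no independent result. In HFpEF-Veh against Control-Veh 41 of the 108 were called (38.0%, beside 21.2% of all genes), 36 higher and 5 lower. In HFpEF-TYA-018 against HFpEF-Veh 39 were called (36.1%, beside 19.3%), 3 higher and 36 lower. In HFpEF-TYA-018 against Control-Veh 4 were called (3.70%, beside 5.86%), all higher. The medians over the lists were 0.21, -0.26 and -0.02 on the log2 scale.

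The list with the largest share of calls held proteases that can cut chemokines, proteoglycans that can display them, and enzymes that modify proteoglycans or receptors. Of its 17 genes, 11 were called higher and 1 lower in HFpEF-Veh, and 11 lower after TYA-018. Cathepsin S (Ctss), which can cleave fractalkine, averaged 6.29 ± 1.67 CPM (Control-Veh), 14.0 ± 3.30 (HFpEF-Veh) and 8.54 ± 1.11 after TYA-018 (log2 fold changes 1.16 and -0.72, adjusted p = 0.00231 and 0.0244). The membrane protease Mmp14 gave 0.73 and -0.58 (0.00326 and 0.0116). Tpst2, which sulphates tyrosines of chemokine receptors, gave 0.38 and -0.24 (0.00133 and 0.0148). Mmp9 was the gene called lower in HFpEF-Veh.

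Signalling genes downstream of the receptors gave 8 higher and 1 lower of 23 in the first comparison and 10 lower in the second. The G protein subunit Gnb1 had log2 fold changes of 0.31 and -0.36 (adjusted p = 0.00527 and 0.00302), and the phospholipase Plcb3 0.23 and -0.38 (0.0318 and 0.00382). The receptor kinase Grk5 had log2 fold changes of 0.36 in HFpEF-Veh and -0.07 in the second comparison (adjusted p = 0.00108 and 0.368, edgeR). Grk5 was also called higher in treated model hearts than in Control-Veh (0.29, 0.0102). Rgs2 was the gene called lower in HFpEF-Veh.

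Leukocyte adhesion genes gave 7 higher of 18 in the first comparison, and 6 lower and 1 higher in the second. Itgam, the integrin chain CD11b of myeloid cells, averaged 2.16 ± 0.553, 4.21 ± 0.590 and 1.98 ± 0.251 CPM in the 3 groups (log2 fold changes 0.96 and -1.09, adjusted p = 0.00427 and 0.00299, edgeR). Itgb1 gave 0.47 and -0.27 (0.00256 and 0.0350), and the endothelial adhesion gene Pecam1 0.52 and -0.58 (0.00498 and 0.00377).

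Of 18 tested genes listed for cytokines, cytokine receptors and Toll-like receptor signalling, 5 were called higher and 1 lower in HFpEF-Veh. Tlr4 was 1 of the 5. After TYA-018, 1 gene was called higher and 4 lower. The interferon gamma receptor chain Ifngr1 gave log2 fold changes of 0.40 and -0.54 (adjusted p = 0.00974 and 0.00292, edgeR), and the TNF receptor Tnfrsf1a 0.38 and -0.27 (0.00628 and 0.0338). Il1b went the other way, at 0.732 ± 0.287 CPM in Control-Veh and 0.204 ± 0.0663 in HFpEF-Veh (log2 fold change -1.84, adjusted p = 0.00920).

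Transcription factors of chemokine genes were listed together with regulators of NF-kB signalling, such as Nfkbia and Tnfaip3. This list gave 4 calls of 20 in each of the first and second comparisons (20.0%, beside 21.2% and 19.3% of all genes). Of these calls, 2 were higher in the first and 1 in the second. Irf7, of the interferon response, had log2 fold changes of 0.79 in HFpEF-Veh and -0.42 after TYA-018 (adjusted p = 0.000998 and 0.0223, edgeR). The values that follow are log2 fold changes too. Cebpb gave -0.47 and 0.35 (0.00192 and 0.00933), and Irf3 -0.59 in the first comparison (0.00621). Of family members and related genes outside the symbol rule, 3 of 12 were called higher in HFpEF-Veh. The chemerin receptor Cmklr1 gave 0.59 and -0.52 (0.0143 and 0.0281), Cmtm6 0.50 and -0.38 (0.00404 and 0.0177), and the platelet chemokine Pf4 0.49 in the first comparison only as a call (0.0242, then -0.29 with 0.151).

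The genes whose log2 CPM followed the summed CPM of the 10 called members most closely over the 12 libraries were Mgll (Pearson's r 0.973), Dcun1d3 (0.957), Pea15a (0.955), Tor4a (0.953) and Sgk1 (0.952). Cxcl12 makes up most of that sum, and the 12 libraries fall into 3 groups, so these values describe likeness only.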

How the data were processed

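Poly(A) RNA of left ventricles was sequenced in 12 libraries, 4 per group and 1 per mouse. The authors trimmed reads and quantified transcripts with Salmon (version 1.6.0 per the submitters' processing notes) against GENCODE mouse transcripts of GRCm38, corrected for sequence, GC and position, and summed them per gene. The labels name a human build, and labels and paper give different read layouts, which the files do not settle. The deposited tables hold estimated counts, TPM and effective lengths per gene. TPM and lengths depend on transcript models, so counts were used for tests.

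Estimated counts were rounded to whole numbers and fitted in edgeR 4.0.16 (R 4.3.3) with TMM scaling, filterByExpr and the quasi-likelihood test, in 1 model of 3 groups with 9 residual degrees of freedom. P-values were adjusted by Benjamini-Hochberg over 14333 genes holding 99.98% of counts, two-sided, with a threshold of 0.05. The fit was tested on simulated data. CPM values divide by the library total times its TMM factor. Rows named by whole numbers (19) are no members. No column of per-sample values was left out. Alternatives were DESeq2 1.42.0, no filter, only the 2 groups compared, effective lengths as offset, no mitochondrial genes, limma 3.58.1 on log2(TPM + 1), on log2(TPM + 0.1) and on rescaled TPM, and each library left out.

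Members and lists were chosen with earlier results of these data known. Values per library are given for members called in a comparison, the 10 with the highest mean TPM and each tested receptor, except 1 member that enters the counts and sums but is not reported here. Up to 3 called genes per list are named by smallest adjusted p. Whether mice were littermates is not given in the sources used here.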

Additional observations from a re-analysis of the deposited data

Results flagged for a closer look

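In each group of 4 libraries the gap between an extreme library and its nearest neighbour was compared with the group's range, and 5 of the 108 groups of tested members exceeded the 95% critical ratio of Dixon's test. Chance alone flags about 1 in 20 groups. Ccl2 reached 1.79 CPM in V1 while the other HFpEF-Veh libraries lay between 0.532 and 0.708 CPM (ratio 0.860). Cxcl10 was at 0.393 CPM in C1, against 0.131 to 0.158 CPM in the other Control-Veh libraries (ratio 0.899). Ccr2 was at 4.18 CPM in V2 and between 2.60 and 2.63 CPM in the other HFpEF-Veh libraries (ratio 0.980), and its call against Control-Veh was lost without V2 (log2 fold change 0.92, adjusted p = 0.0821, edgeR). Ccr7 was at 0.354 CPM in V2, beside 0.0912 to 0.122 CPM (ratio 0.885). Cxcr2 was low in V1, at 0.120 CPM beside 0.319 to 0.347 CPM (ratio 0.876). Of the 5 high or low values, 4 were in HFpEF-Veh libraries and 2 in V2.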

How the results depend on the processing

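For HFpEF-Veh against Control-Veh the count of called members was 8, and it was 5 with effective lengths as offset, 0 with limma on log2(TPM + 1), 0 on log2(TPM + 0.1) and 2 on TPM rescaled without mitochondrial genes. The surrounding pathway genes went from 41 to 18, 2, 2 and 5 under the same settings. Over all tested genes the calls went from 3033 to 1445, 172, 301 and 431. For HFpEF-TYA-018 against HFpEF-Veh the members went from 5 to 3, 2, 2 and 2 and the pathway genes from 39 to 11, 6, 9 and 0. For HFpEF-TYA-018 against Control-Veh the members went from 1 to 0, 0, 0 and 0 and the pathway genes from 4 to 0, 0, 0 and 0, while DESeq2 gave 2 and 10. All tested genes gave 840 calls, then 203, 9, 11 and 25, and 1514 with DESeq2. The cause was not tested. The median of all genes was 0.17 in the second comparison on log2(TPM + 1) and 0.34 on log2(TPM + 0.1). Leaving out 1 library gave 4 to 11, 3 to 6 and 0 to 1 called members, and 29 to 49, 18 to 33 and 1 to 6 pathway genes, in that order of comparisons. These fits called 1986 to 3992, 1485 to 2729 and 308 to 809 of all tested genes. Fewest members were called without C2 in the first comparison (4), without V2, T1 or T2 in the second (3) and without C4, T2 or T3 in the third (0). In the comparison in which it was called, no member changed direction under any alternative. Of the 36 tested members, however, 7, 11 and 8 changed sign in at least 1 alternative in the 3 comparisons. Fits that left out a library do not enter these counts of sign changes. Low members are limited by their counts and by the spread of 4 mice. No paired analysis was possible because the labels number each mouse only once.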
